A study of Mus musculus with 6 samples.

Results

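A group of 10 genes of the Notch pathway and of the secretory fate decision it controls were followed in the epithelium of the large intestine of germ-free mice. They were taken by name: the Notch ligands Dll1, Dll4, Jag1 and Jag2, the receptors Notch1 and Notch2, the Notch-induced repressor Hes1, and the secretory fate factors Atoh1, Gfi1 and Spdef. All 10 were measured, of 19533 genes in all, each by 1 probe set that names that gene alone. The control group, HDAC3FF, carries floxed Hdac3 alleles, and the HDAC3ΔIEC group lacks Hdac3 in its intestinal epithelial cells. Each group held 3 biological replicates on the C57BL/6 strain, and every animal of both groups was germ-free, so no group with a microbiota enters the comparison. Live EpCAM+ cells, that is cells with this epithelial adhesion protein on their surface, were taken from the large intestine, and each sample's total RNA went to 1 Affymetrix array. Not given in the sources used here: the promoter behind the deletion, and the age and sex of the mice. Values are deposited log2 signals, on which a difference of 1 is a doubling.

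Notch ligands on one cell activate receptors on its neighbour. The receptor's intracellular part is then cut free and acts in the nucleus with the DNA-binding protein RBPJ. In the intestinal crypt this signal induces Hes1, a basic helix-loop-helix repressor that holds down Atoh1, and cells with the signal become absorptive. Cells that escape it express Atoh1, the basic helix-loop-helix activator on which goblet, enteroendocrine and Paneth cells depend, and display Dll1 and Dll4 to their neighbours. Gfi1 acts below Atoh1 to hold cells on the goblet and Paneth path, and Spdef, an ETS factor, drives goblet cell maturation. HDAC3 is the histone deacetylase of the NCoR and SMRT corepressor complexes.

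Dll1 was the 1 gene of the 10 that passed the test between the genotypes, and the stretch before its start is printed here beside that of Dll4, the other Delta-like ligand on the list. Dll1 lies on the minus strand of chromosome 17 (GRCm38.p6, chr17:15367354-15376932). The RefSeq tables held upstream sequence for 9 of the 10 genes, in 11 windows of 250 bases that end just before an annotated start. Hes1 had no entry, so its upstream stretch was searched for none of the motifs below. The E-box, CANNTG, is the core letters that basic helix-loop-helix factors such as ATOH1 recognise, and it is shown in capitals. The Dll1 window is chr17:15376933-15377182 (minus strand) and the Dll4 window is chr2:119325534-119325783 (plus strand), both 5′ to 3′.
Dll1: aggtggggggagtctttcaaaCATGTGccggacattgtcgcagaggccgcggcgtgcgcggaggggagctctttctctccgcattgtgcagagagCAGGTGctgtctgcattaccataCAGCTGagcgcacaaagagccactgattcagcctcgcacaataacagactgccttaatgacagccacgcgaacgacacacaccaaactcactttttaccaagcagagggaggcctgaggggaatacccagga
Dll4: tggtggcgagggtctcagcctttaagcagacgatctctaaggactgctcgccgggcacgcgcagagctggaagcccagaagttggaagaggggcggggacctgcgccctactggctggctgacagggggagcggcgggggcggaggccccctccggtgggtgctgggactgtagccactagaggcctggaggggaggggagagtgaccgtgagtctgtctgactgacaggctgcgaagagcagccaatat
The Dll1 window held 3 E-boxes, whose first bases lie 229, 155 and 132 bases before the start. The Dll4 window held none. A further annotated Dll1 start, 1109 bases downstream, had 1 E-box in its own window. Of all 32851 RefSeq windows of this length, 66.2% held at least 1 E-box, against 5 of the 11 windows of the listed genes. The N-box, CACNAG on either strand, which HES repressors bind, was found in 36.7% of all windows and in those of Dll4, Notch1 and Notch2. The letters TGGGAA on either strand, the core of the RBPJ site, were found in 21.6% of all windows and, among the 9 genes searched, in that of Spdef alone. Neither result covers Hes1. No matches of the 3 motifs overlapped in these 11 windows. A match describes the letters and does not show that a factor binds there.

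Dll1, the Delta-like ligand of early secretory cells, was lower in all 3 HDAC3ΔIEC samples. Its log2 signal was 5.80, 5.84 and 5.78 on the HDAC3FF arrays and 5.11, 5.07 and 5.10 on the HDAC3ΔIEC arrays. The groups were far apart for their spread: the highest HDAC3ΔIEC value lay 0.68 below the lowest control value, while the SD was 0.03 in HDAC3FF and 0.02 in HDAC3ΔIEC (n = 3 each). The log2 fold change was -0.72 ± 0.07 (SE), which puts the HDAC3ΔIEC signal at 60.8% of the control signal, a 1.65-fold fall. Its mean signal stood at the percentile 51.7 of all genes, and the HDAC3ΔIEC values lay below the median of every array (5.30 to 5.35). Background is not marked in the deposited values, so its share in this ratio of signals is not known. Dll1 passed limma's test over all genes (adjusted p = 0.0161), with a 95% interval of the log2 change from -0.89 to -0.54. The exact two-sided permutation test over the 6 arrays gave p = 0.1, the smallest value that 3 against 3 arrays allow. In cells profiled in bulk, fewer Dll1-expressing cells and less Dll1 RNA per cell cannot be told apart.

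That made 1 of the 10 genes past an adjusted p under 0.05, in the lower direction, against 0.333% of all 19533 genes called lower, 0.369% called higher and 0.701% called in either direction (limma, 137 genes). Dll1 ranked the 25th of all genes by p. Its change was moderate among the called genes, of which 102 changed more and whose median absolute log2 change was 1.12. Its spread was small: the pooled within-group SD of 0.025 lay at the percentile 0.451 of all genes, compared with a median of 0.15 over the 1362 genes within 0.25 of its mean signal, and no called gene had a smaller one. Limma's moderation raises so small a spread toward that of other genes before the test. The call depended on the arrays used. Without HDAC3FF replicate 3 it held (limma adjusted p = 0.0144), and without any of the other 5 arrays it was lost, at adjusted p from 0.0589 to 0.110, while the log2 change stayed between -0.73 and -0.70. The total of 137 called genes ran from 13 (without HDAC3FF replicate 1) to 430 (without HDAC3FF replicate 3) with 1 array left out.

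**Figure D1:**
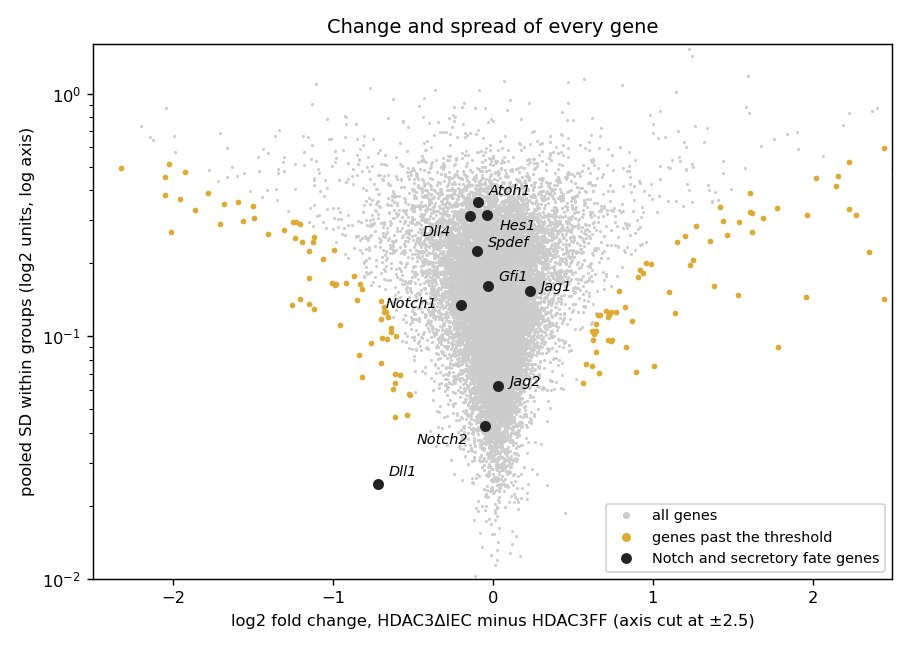
Pooled within-group SD (log2 units, log axis) against the log2 fold change of HDAC3ΔIEC minus HDAC3FF for every gene within the drawn range (grey), the genes past an adjusted p under 0.05 (yellow) and the 10 Notch and secretory fate genes (black). Dll1 sits alone at a change of -0.72 and an SD of 0.025, and the other 9 genes lie among the bulk of genes, between -0.20 and 0.23.

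Dll4, the other Delta-like ligand of intestinal secretory cells, did not pass (limma adjusted p = 0.891). It read 6.35, 6.27 and 6.45 in HDAC3FF and 6.32, 6.59 and 5.74 in HDAC3ΔIEC. The HDAC3ΔIEC values straddled the controls, and replicate 3 alone lay well below them. The log2 fold change was -0.14 ± 0.20 (SE), with a 95% interval from -0.62 to 0.33. Without HDAC3ΔIEC replicate 3 it was 0.09.

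Jag1, a ligand of the Jagged family, had the largest positive value of the 10. Its signals were 5.34, 5.73 and 5.40 in HDAC3FF and 5.69, 5.70 and 5.78 in HDAC3ΔIEC, so that HDAC3FF replicate 2 lay among the HDAC3ΔIEC arrays. The value of 0.23 ± 0.12 for the log2 fold change (SE; 95% interval -0.05 to 0.51) missed the threshold (limma adjusted p = 0.550) and was 0.35 without HDAC3FF replicate 2. Jag2, the other Jagged ligand, was dim in both groups, at 4.44, 4.51 and 4.55 in HDAC3FF and 4.61, 4.52 and 4.48 in HDAC3ΔIEC. Its groups overlapped, and its log2 fold change was 0.03 ± 0.08 (SE, limma adjusted p = 0.943), with a 95% interval from -0.16 to 0.23.

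The receptors showed no change past the threshold. Notch1, the main receptor of crypt progenitors together with Notch2, read 6.07, 6.20 and 6.01 in HDAC3FF and 6.01, 5.96 and 5.71 in HDAC3ΔIEC. The groups met at 6.01, and the log2 fold change was -0.20 ± 0.11 (SE; 95% interval -0.46 to 0.06; limma adjusted p = 0.590). Notch2 read 3.90, 3.997 and 3.999 in HDAC3FF and 3.91, 3.90 and 3.93 in HDAC3ΔIEC, a difference of -0.05 ± 0.08 (SE, limma adjusted p = 0.900). Its mean signal stood at the percentile 20.4 of all genes, and signals below background are not marked in the deposited values, so a level this low cannot be told from background (95% interval of the change -0.23 to 0.13).

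Hes1, the transcript that reports Notch activity most directly among these genes, was bright and varied among the control mice by more than the genotype means differed. It read 8.46, 8.37 and 7.67 in HDAC3FF and 8.20, 8.18 and 8.01 in HDAC3ΔIEC. The 3 HDAC3ΔIEC values fell inside the range of the controls, whose SD was 0.43. The log2 fold change was -0.04 ± 0.20 (SE, limma adjusted p = 0.981), and the 95% interval from -0.51 to 0.44 reaches to both sides of 0. The sign turned without HDAC3FF replicate 1 (0.11) or 2 (0.07) or HDAC3ΔIEC replicate 3 (0.02).

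Atoh1, which Hes1 represses and which commits cells to the secretory lineage, had the brightest mean signal of the 10. It read 9.69, 9.99 and 10.46 in HDAC3FF and 9.76, 9.78 and 10.32 in HDAC3ΔIEC. In each group replicate 3 was the highest, and the groups covered nearly the same range. The log2 fold change was -0.09 ± 0.23 (SE; 95% interval -0.63 to 0.44; limma adjusted p = 0.945), and it turned positive without HDAC3FF replicate 3 (0.11) or HDAC3ΔIEC replicate 1 (0.004).

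Spdef read 8.97, 8.99 and 9.43 in HDAC3FF and 9.23, 8.999 and 8.86 in HDAC3ΔIEC, with overlapping groups. Its log2 fold change was -0.10 ± 0.15 (SE; 95% interval -0.46 to 0.26; limma adjusted p = 0.903), and it was 0.05 without HDAC3FF replicate 3 and 0.02 with array weights. Gfi1 was dimmer, at 5.50, 5.09 and 5.44 in HDAC3FF and 5.35, 5.31 and 5.26 in HDAC3ΔIEC. The HDAC3ΔIEC values lay inside the control range, with a log2 fold change of -0.03 ± 0.12 (SE; 95% interval -0.32 to 0.25; limma adjusted p = 0.965) that was 0.04 without HDAC3FF replicate 1 and 0.02 without HDAC3FF replicate 3.

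**Figure D2:**
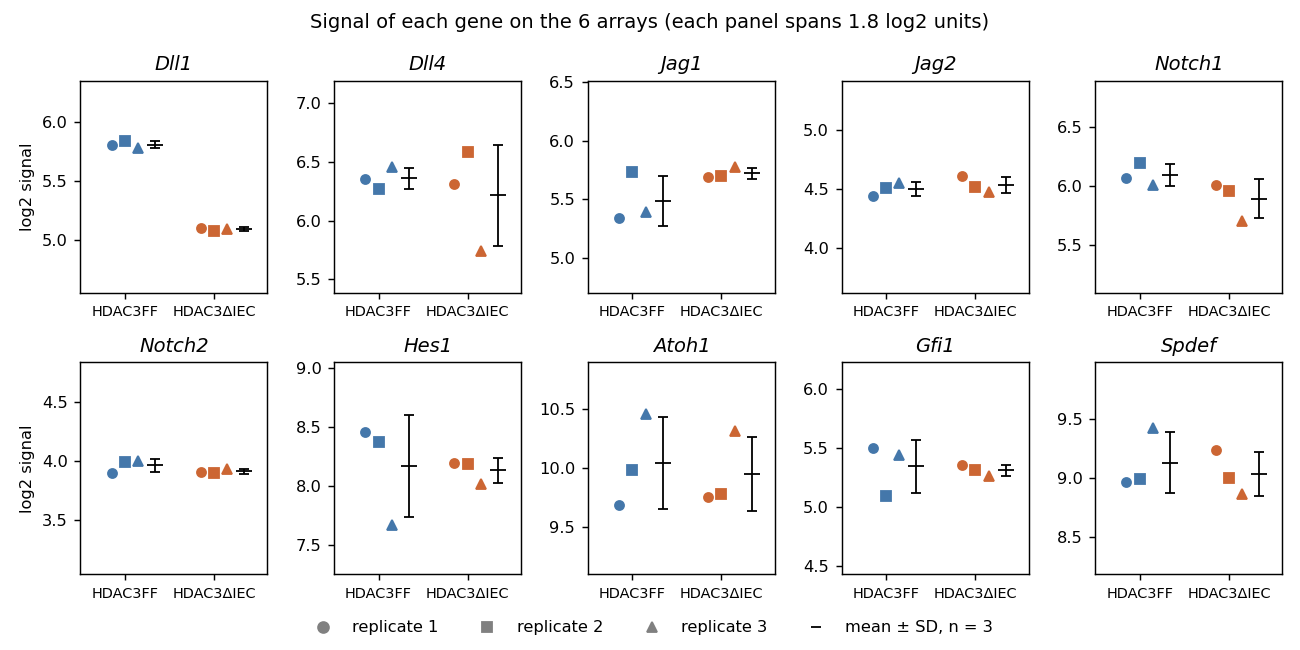
Log2 signal of each of the 10 genes on the 6 arrays, HDAC3FF in blue and HDAC3ΔIEC in orange, with the replicate number as the marker and the mean ± SD (n = 3) beside each group; every panel spans the same 1.8 log2 units. Dll1 is the 1 panel in which the groups do not overlap, at 5.78 to 5.84 against 5.07 to 5.11.

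Over the 10 genes, the groups stood apart without overlap for 1, Dll1, against 16.2% of all genes and 7.70% in the lower direction. The median log2 fold change of the 10 was -0.07, compared with 0.01 over all genes, with 8 values negative and 2 positive. The 9 genes other than Dll1 lay between -0.20 and 0.23, at limma adjusted p from 0.550 to 0.981. A p that misses the threshold does not show that these genes stayed level, and the intervals were widest for Atoh1, Hes1 and Dll4.

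**Figure D3:**
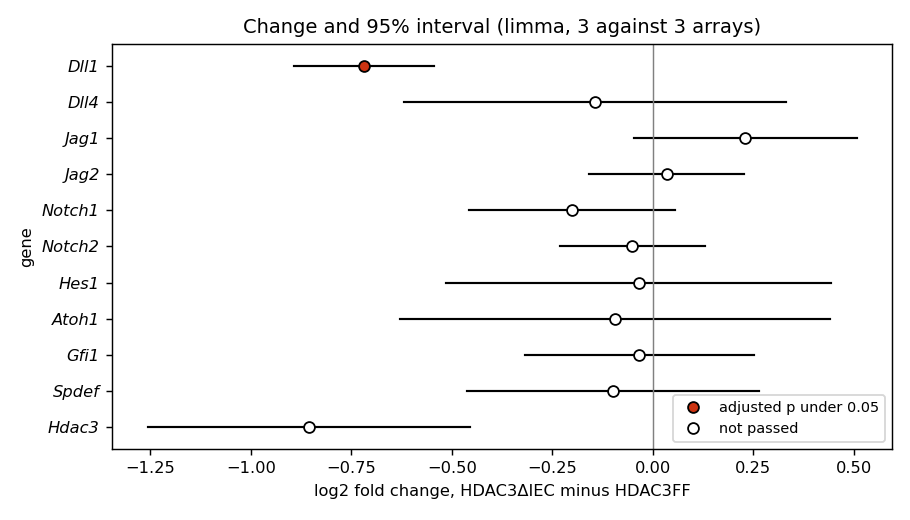
Log2 fold change of HDAC3ΔIEC minus HDAC3FF with limma's 95% interval for the 10 genes and for the targeted gene Hdac3; the filled point passed an adjusted p under 0.05. The interval of Dll1 runs from -0.89 to -0.54, and those of the other 9 listed genes include 0.

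The control mouse behind HDAC3FF replicate 3 stood apart in several of these genes. It had the lowest Hes1 signal of all 6 arrays (7.67), the highest Atoh1 (10.46) and the highest Spdef (9.43). Across all genes its array correlated with the other controls at r of 0.987 and 0.988, where those 2 correlated at 0.994. The mean log2 signal of its 10 goblet cell markers was 11.50, against 11.32 and 11.29 in the other controls, that of its 14 enteroendocrine markers 7.96 against 7.43 and 7.36, and that of its 8 crypt stem cell markers 6.04 against 6.34 and 6.46. Other lists were also highest on this control: epithelial (10.98 against 10.75 and 10.82), endothelial (4.44 against 4.33 and 4.35) and fibroblast and muscle markers (5.03 against 4.75 and 4.84). So were the Paneth, absorptive, B and plasma cell and myeloid lists, while those of tuft cells and of T and NK cells were not. The part of these differences in the values of Hes1, Atoh1 and Spdef was not tested. Dll1 did not follow them, at 5.78 on this array, close to 5.80 and 5.84. HDAC3ΔIEC replicate 3 also correlated less well within its group, at r of 0.991 and 0.991, where the other 2 HDAC3ΔIEC arrays correlated at 0.996.

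The rest of the pathway held no gene past the threshold. Of 94 measured genes in 8 further lists of Notch and secretory fate genes, 0 passed limma's test over all genes, while 18 (19.1%) had an unadjusted p under 0.05, against 11.2% of all genes. Groups without overlap were found for 18 of the 94, 7 higher and 11 lower in HDAC3ΔIEC, which is 19.1% against 16.2% of all genes and so close to the background. The median log2 fold change of the 94 was 0.01, as over all genes.

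Among the 6 other ligands and receptors, none had an unadjusted p under 0.05. The receptor Notch4 (0.08 ± 0.09, SE) and the divergent ligand Dll3 (0.07 ± 0.12) had the smallest p. Of 10 genes that sort ligands or mature the receptor, 3 had an unadjusted p under 0.05 and 0 passed. Lfng, the Fringe glycosyltransferase that alters which ligands a receptor answers to, read 5.77, 5.73 and 5.64 in HDAC3FF and 5.56, 5.23 and 5.02 in HDAC3ΔIEC (log2 fold change -0.44 ± 0.14, SE, limma adjusted p = 0.276). Mib1, the ubiquitin ligase that lets ligands such as DLL1 be internalised and so become active, read 7.44, 7.28 and 7.22 against 7.05, 7.08 and 7.03 (-0.26 ± 0.09, limma adjusted p = 0.313). Both therefore had HDAC3ΔIEC values below every control value without passing over all genes.

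Of 8 measured genes of receptor cleavage, 0 passed and 2 had an unadjusted p under 0.05: Psen2, a catalytic subunit of gamma-secretase (-0.46 ± 0.17, SE; -0.26 without HDAC3FF replicate 2), and the sheddase Adam17 (-0.27 ± 0.11; -0.18 without HDAC3ΔIEC replicate 3). The 14 measured genes of the nuclear complex and its corepressors had negative values in 12 cases, with a median of -0.11, and 1 had an unadjusted p under 0.05. That was Tle1, a Groucho corepressor that HES proteins recruit (0.26 ± 0.10), followed by the coactivator Maml3 (-0.21 ± 0.10), while Rbpj itself had a value of -0.07 ± 0.14. Without HDAC3FF replicate 2 the value of Rbpj was 0.04. Of 10 inhibitors and turnover factors, 8 had positive values (median 0.16), against 10444 of 19533 over all genes, and 3 had an unadjusted p under 0.05. The mean log2 signal of these 10 overlapped between the groups, at 5.88 to 6.14 in HDAC3FF and 6.01 to 6.21 in HDAC3ΔIEC. Nrarp, a Notch target that restrains the nuclear complex, had a log2 fold change of 0.34 ± 0.12 (limma adjusted p = 0.345), and Numbl, a relative of the Notch inhibitor Numb, one of 0.23 ± 0.08 (limma adjusted p = 0.349).

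Other HES and HEY factors and Notch targets numbered 13, with 2 at an unadjusted p under 0.05 and 0 past the threshold. Ccnd1, which encodes cyclin D1, read 7.95, 8.15 and 7.59 in HDAC3FF and 8.53, 8.83 and 8.14 in HDAC3ΔIEC (0.61 ± 0.20, SE, limma adjusted p = 0.304), so that the lowest HDAC3ΔIEC array and the highest control array met. Hes6, a HES relative that opposes HES1, had a value of -0.23 ± 0.10 (limma adjusted p = 0.431). Of 7 E proteins, the dimer partners of ATOH1, and Id proteins, which block such dimers, 0 passed and 2 had an unadjusted p under 0.05. These were Id2, at 8.44, 8.19 and 8.76 in HDAC3FF and 7.64, 7.83 and 7.92 in HDAC3ΔIEC (-0.67 ± 0.16, limma adjusted p = 0.127), and Tcf12, an E protein (-0.29 ± 0.08, limma adjusted p = 0.212).

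The 26 other lineage transcription factors included the widest differences of these lists. Of these, 5 had an unadjusted p under 0.05 and 0 passed. Neurod1, which acts late in enteroendocrine differentiation, read 4.97, 4.38 and 5.10 in HDAC3FF and 5.84, 5.58 and 6.66 in HDAC3ΔIEC. All 3 HDAC3ΔIEC values were above the controls, and the log2 fold change, 1.21 ± 0.30 (SE), missed the threshold (limma adjusted p = 0.156). Neurog3, the Atoh1-dependent factor that starts that lineage, read 4.60, 5.15 and 5.21 in HDAC3FF and 5.35, 5.50 and 5.26 in HDAC3ΔIEC (0.38 ± 0.17, limma adjusted p = 0.464). Without HDAC3FF replicate 1, the lowest array, its value was 0.19. Creb3l4, a membrane-bound transcription factor, read 6.98, 7.27 and 7.51 in HDAC3FF and 6.48, 6.34 and 6.58 in HDAC3ΔIEC. Its groups did not overlap, and its log2 fold change of -0.79 ± 0.14 stood just outside the threshold (limma adjusted p = 0.0753); it passed with array weights (0.0371) and with the filter on genes under the median signal (0.0498). Cbfa2t3, a corepressor of the ETO family, read 6.41, 6.83 and 6.43 against 6.32, 5.99 and 5.57 (-0.60 ± 0.20, limma adjusted p = 0.308), without overlap. It has more than 1 probe set, and their mean gave a smaller value for Cbfa2t3, -0.29.

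**Figure D4:**
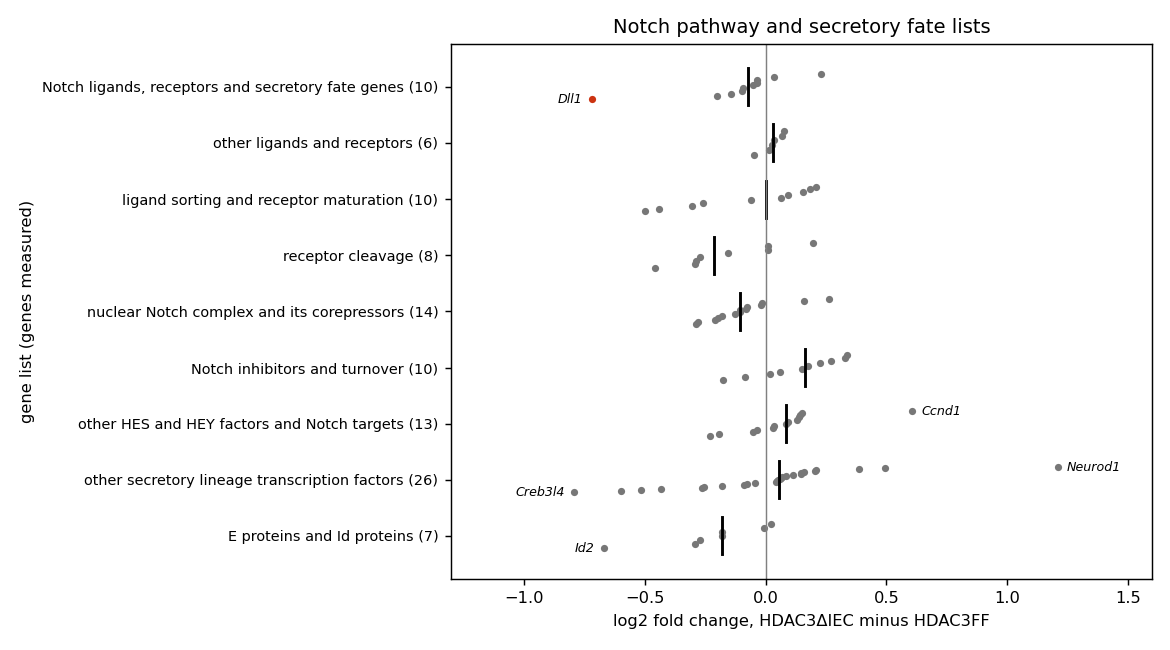
Log2 fold change of HDAC3ΔIEC minus HDAC3FF for each measured gene (points) of the 10-gene group and of the 8 further lists, with the median of each list (bar) and the number of genes measured in brackets. Dll1 is the 1 point past an adjusted p under 0.05 (red), and the widest values of the other lists are those of Neurod1 (1.21) and Creb3l4 (-0.79).

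Markers of the mature cell types that these factors produce were read on the same arrays, as bulk signals carry no count of cells. Goblet cell markers were bright: Tff3 and Spink4, the brightest, had log2 fold changes of -0.01 ± 0.09 and -0.13 ± 0.08 (SE), and 0 of 10 passed limma's test. The 2 at an unadjusted p under 0.05 were both lower: Retnlb, an antimicrobial goblet cell protein (-1.15 ± 0.19, limma adjusted p = 0.0568), and Reg4, a secreted lectin (-0.43 ± 0.10). Retnlb passed with several alternatives, array weights (0.0392) and the omission of HDAC3ΔIEC replicate 1 (0.0472) among them. The mean log2 signal of the goblet list was 11.32, 11.29 and 11.50 in HDAC3FF and 11.20, 11.10 and 11.11 in HDAC3ΔIEC, lower without overlap, while its summed linear signal ran from 50267 to 56775 and from 48589 to 50760 and overlapped. Of 14 enteroendocrine markers, the hormone genes Insl5 (3.07 ± 0.28, limma adjusted p = 0.00923) and Pyy (2.22 ± 0.33, limma adjusted p = 0.0405) rose, none fell and 12 did not pass. Of the 14, 11 had an unadjusted p under 0.05, 9 of them with positive values. The somatostatin gene Sst (2.74 ± 0.44) lay at the threshold, with a limma adjusted p of 0.050 that counted as not passed and that was lower with array weights (0.0274) and without HDAC3FF replicate 3 (0.0473). Over all genes, array weights raised the calls from 137 to 357, and the omission of HDAC3FF replicate 3 raised them to 430. Further hormone genes had values of 2.40 ± 0.53 (Nts), 1.91 ± 0.43 (Gcg) and 1.84 ± 0.42 (Cck), at limma adjusted p from 0.119 to 0.125. Of these, Nts and Gcg passed without HDAC3FF replicate 3 (limma adjusted p = 0.0361 and 0.0304). Against that direction, Tac1 (-0.69 ± 0.17) and the prohormone convertase gene Pcsk1 (-0.32 ± 0.10) had negative values without overlap. The brightest of the list, Sct (-0.28 ± 0.17; -0.080 without HDAC3FF replicate 3) and Chgb (0.58 ± 0.25; 0.32 without HDAC3FF replicate 2), did not pass. The summed signal of all 14 enteroendocrine markers was 6870 to 11235 in HDAC3FF and 12238 to 15611 in HDAC3ΔIEC, higher without overlap. Pyy did not pass without HDAC3FF replicate 1 or 2 or any 1 HDAC3ΔIEC array (limma adjusted p up to 0.170) or over all probe sets (0.0528), nor Insl5 without HDAC3FF replicate 1 or HDAC3ΔIEC replicate 2 (up to 0.0660).

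Absorptive colonocyte markers, the fate that Notch signalling favours, had 1 rise among 12, that of the sodium-proton exchanger gene Slc9a3 (1.78 ± 0.09, SE, limma adjusted p = 0.000645). Of the 12, 4 had an unadjusted p under 0.05. Among them were Slc26a3, a chloride exchanger gene (-0.44 ± 0.08, limma adjusted p = 0.0819), and Aqp8, a water channel gene (0.69 ± 0.22, limma adjusted p = 0.266). Aqp8 passed without HDAC3FF replicate 3 (0.0292), an omission that raised the calls over all genes to 430. Guca2a (-0.17 ± 0.08) and Car1 (0.17 ± 0.08), the brightest, did not pass. The summed signal of all 12 absorptive markers was 43437 to 48315 in HDAC3FF and 43104 to 50240 in HDAC3ΔIEC. None of the 8 crypt stem cell markers passed (Slc12a2 -0.16 ± 0.13, Cdca7 0.26 ± 0.26). The 1 at an unadjusted p under 0.05 was Lgr5, the stem cell receptor gene (-0.73 ± 0.23, limma adjusted p = 0.267). Its groups overlapped, at 5.593 in HDAC3FF replicate 3 and 5.596 in HDAC3ΔIEC replicate 1. Lgr5 passed without that control array (0.0330). The list had summed signals of 1024 to 1300 in HDAC3FF and 947 to 1167 in HDAC3ΔIEC. Tuft cell markers gave 0 of 11 with 7 negative values, summing to 592 to 1286 in HDAC3FF and 593 to 1017 in HDAC3ΔIEC. The 1 at an unadjusted p under 0.05 was Gng13, a G protein subunit gene, lower without overlap (-1.36 ± 0.41), while the brightest, Sh2d6 (0.09 ± 0.36) and Dclk1 (0.33 ± 0.32), had positive values. Paneth cell markers gave 0 of 5, and the 2 at an unadjusted p under 0.05 went opposite ways: Ang4, the brightest (-1.47 ± 0.34), was lower and the lysozyme gene Lyz1 (0.79 ± 0.17) higher, each without overlap, beside Mmp7 at 0.17 ± 0.14. Lyz1 missed the threshold in the main fit (limma adjusted p = 0.114) and passed with array weights (0.0392). It was dim, with a mean signal of 4.36 at the percentile 31.8 of all genes, and background is not marked. Signal on this list does not show that Paneth cells were present. The summed Paneth signal, to which Ang4 gave most, was 368 to 402 in HDAC3FF and 151 to 291 in HDAC3ΔIEC, while the mean log2 signal of the list overlapped, at 4.72 to 4.85 and 4.52 to 5.11. Ang4 missed the threshold on all 6 arrays (limma adjusted p = 0.127) and passed without HDAC3ΔIEC replicate 1 (-1.91, limma adjusted p = 0.00968). The part of these lists in the fall of Dll1 was not tested.

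Dll4, Jag1 and Notch1 are also active in blood vessels, and immune cells carry Notch receptors. The epithelial markers read high in both groups, Epcam at 10.91 ± 0.13 and 10.85 ± 0.11 (SD, n = 3 each), Vil1 at 10.97 ± 0.25 and 11.15 ± 0.05, and the brightest, Krt8 and Krt19, with log2 fold changes of 0.26 ± 0.08 and 0.30 ± 0.09 (SE). None of the 9 epithelial markers passed (4 at an unadjusted p under 0.05). Their summed signal was 24085 to 28558 in HDAC3FF and 29611 to 32577 in HDAC3ΔIEC, higher without overlap. Their mean log2 signal overlapped, at 10.75 to 10.98 in HDAC3FF and 10.93 to 11.12 in HDAC3ΔIEC. The 10 endothelial markers summed to 212 to 235 in HDAC3FF and 219 to 228 in HDAC3ΔIEC, with 0 past limma's test and 0 at an unadjusted p under 0.05; Cldn5 had a value of 0.10 ± 0.09 and Vwf one of 0.04 ± 0.12. The median of the endothelial markers' mean signals was 4.42, below the median of every array. Fibroblast and muscle, T and NK cell, and B and plasma cell markers were likewise dim by the median of each list. Of 12 fibroblast and muscle markers, 0 passed and 0 had an unadjusted p under 0.05 (Tagln 0.27 ± 0.15, Col1a1 -0.06 ± 0.09). Tagln and Col1a1, with mean signals of 6.44 and 5.56, lay above the median of every array. Of 7 T and NK cell markers, 0 passed and 1 had an unadjusted p under 0.05 (Cd3e -0.22 ± 0.09, Cd4 0.12 ± 0.08). Of 5 B and plasma cell markers, 0 passed and 0 had an unadjusted p under 0.05 (Pou2af1 -0.23 ± 0.14, Cd79b -0.16 ± 0.16). In the order named, the summed signals of these lists were 368 to 453, 135 to 144 and 89.4 to 104 in HDAC3FF. In HDAC3ΔIEC they were 389 to 432, 129 to 146 and 82.6 to 92.7. The medians of mean signals ran from 3.57 to 4.81. The mean log2 signal of the B and plasma cell list was lower without overlap, at 4.04 to 4.12 in HDAC3FF and 3.92 to 4.02 in HDAC3ΔIEC. Of 10 myeloid markers, 5 had positive and 5 negative values. The complement gene C1qa fell (-1.71 ± 0.19, limma adjusted p = 0.0204), none rose and 9 did not pass, with Cd14 at -0.40 ± 0.16. C1qa did not pass without HDAC3FF replicate 1 or HDAC3ΔIEC replicate 2 or 3 (limma adjusted p up to 0.123). The other C1q genes, C1qb (0.07 ± 0.10; -0.028 without HDAC3FF replicate 2) and C1qc (-0.11 ± 0.11), had overlapping groups, and Cd68, a macrophage lysosomal gene, was higher without overlap (0.51 ± 0.13, limma adjusted p = 0.174). The summed myeloid signal, in which C1qa and Cd14 are the brightest genes, was 500 to 580 in HDAC3FF and 392 to 454 in HDAC3ΔIEC. The mean log2 signal of the list was also lower without overlap, at 4.83 to 4.88 and 4.65 to 4.77. Its median log2 fold change was 0.0034. The part of these markers in the Dll1 result was not tested.

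**Figure D5:**
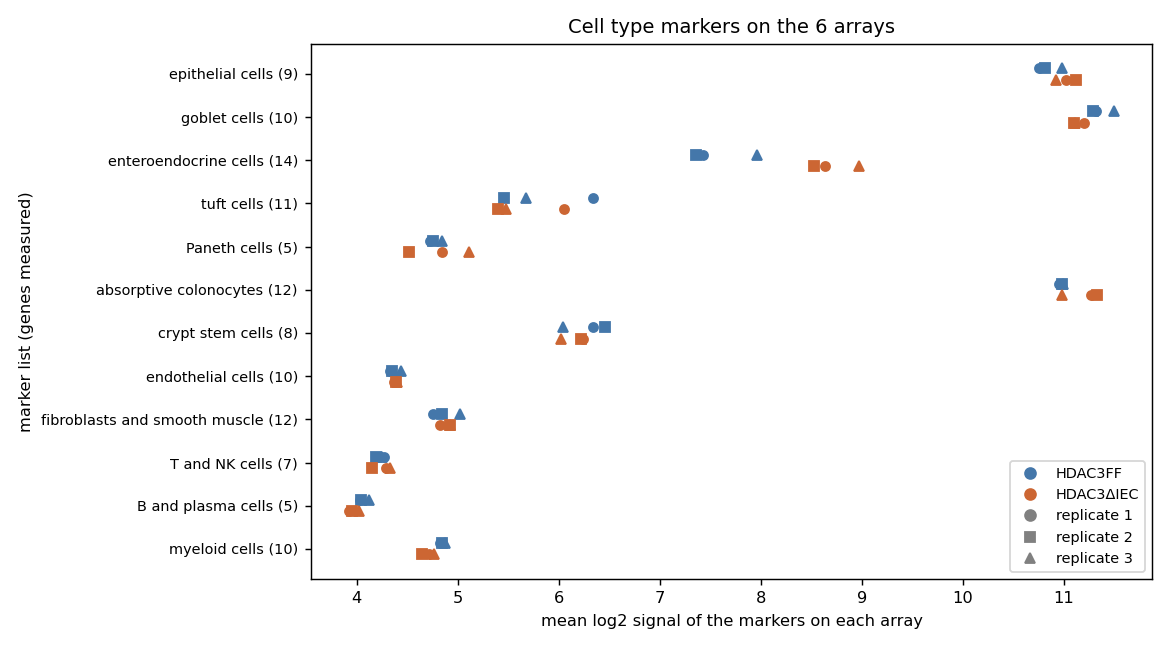
Mean log2 signal of each list of cell type markers on the 6 arrays, HDAC3FF in blue and HDAC3ΔIEC in orange, with the replicate number as the marker and the number of genes measured in brackets. Enteroendocrine markers lie higher on all 3 HDAC3ΔIEC arrays (12238 to 15611 as summed linear signal, against 6870 to 11235), goblet markers lie slightly lower on them, and endothelial markers sit close together in both groups.

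Hdac3, the targeted gene, read 6.96, 7.36 and 7.04 in HDAC3FF and 6.58, 6.22 and 6.00 in HDAC3ΔIEC, below every control, with a log2 fold change of -0.86 ± 0.17 (SE) at a limma adjusted p = 0.0937. Whether its probes lie within the deleted stretch is not known here, and any outside it do not check the labels. Array medians over all genes were 5.30 to 5.35, and having 6 arrays limits the precision throughout.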

How the data were processed

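Per the labels' protocols, RNA was taken up in Trizol and biotin-labelled for 1 Affymetrix array a sample. The authors deposited 1 value per probe set and array, a log2 signal by its range. The submitters' processing notes name Affymetrix Power Tools; its version, the background correction and the normalization were not given in the sources used here. Of 24939 probe sets, 21105 name 1 gene; a gene with several was read from the one whose mean over the 6 arrays was highest (19533 genes). Symbols were matched to RefSeq GRCm38.p6 by Entrez number for 21022 probe sets, which changed 0.

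The 2 genotypes were compared by limma 3.58.1 (lmFit, eBayes, two-sided; 3.26 prior degrees of freedom) in R 4.3.3, with Benjamini-Hochberg adjustment over all genes and calls under 0.05. Single values were compared by exact two-sided permutation. The fit was tested on simulated data. Motifs were counted and tables made with Python 3.11.15, figures with matplotlib 3.10.9. The alternatives tried were a replicate block, an intensity trend, a robust prior, array weights, quantile normalization, median centring, 2 filters on dim genes, the mean of all probe sets, adjustment over all probe sets, an adjusted p under 0.10 and omission of each array.

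The 10 genes and all lists were chosen with earlier results of these data known. Named genes are the 10, Hdac3, Epcam, Vil1, per pathway list up to 4 called members or else the 2 with the smallest p, and per marker list the 2 brightest and up to 2 called. Neurog3, Cbfa2t3, Rbpj and, among the markers, Sst, Nts, Gcg, Cck, Tac1, Pcsk1, Retnlb, Reg4, Slc26a3, Aqp8, Lgr5, Gng13, Lyz1, Cd68, C1qb and C1qc were added after their values were seen. The design text calls the samples biological replicates.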

Additional observations from a re-analysis of the deposited data

How the results depend on the processing

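The fall of Dll1 kept its direction under every alternative run, which leaving out arrays could not change since its groups do not overlap, and its call under all but the replicate block and the omission of any array other than HDAC3FF replicate 3. The count of the 10 genes past the threshold was 0 with the replicate block (limma adjusted p = 0.0986 for Dll1; 0.0798 for Insl5, 0.0989 for Pyy and 0.103 for C1qa) and 0 to 1 with 1 array left out. With that block Nts and Slc9a3 passed (limma adjusted p = 0.0202 each). The labels of same-numbered arrays share a number and state no pairing. The deviations of these arrays from the group means correlated at -0.02, -0.07 and -0.20, and 0 of 6 arrays correlated best with their own number. With 3 arrays a group, such correlations cannot settle whether the mice were paired. The number of genes called was 12 with the replicate block, 357 with array weights, 90 with all probe sets, 321 at an adjusted p under 0.10, and 13 to 430 with 1 array left out. The median log2 fold change of the 10 genes was -0.14 to -0.0086 with 1 array left out, and Hdac3 passed only at an adjusted p under 0.10 (-0.86, adjusted p = 0.0937).

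Values near 0 turned sign in places. With array weights Spdef was 0.016, and with median centring Tff3 was 0.0051. With 1 array left out Hes1 ran from -0.28 to 0.11, Gfi1 from -0.16 to 0.044, Rbpj from -0.19 to 0.037, C1qb from -0.028 to 0.14, Sh2d6 from -0.22 to 0.37, Vwf from -0.032 to 0.13, Epcam from -0.11 to 0.015, Atoh1 from -0.28 to 0.11, Spdef from -0.20 to 0.050, Tff3 from -0.045 to 0.041, Cdca7 from -0.055 to 0.44, Jag2 from -0.0027 to 0.063, Dll3 from -0.057 to 0.13, Dll4 from -0.33 to 0.093. The cause was not tested. The filters on dim genes removed Notch2 at the 25th percentile, and Notch2, Jag2 and Gfi1 at the median. Of the 64 other named genes' alternatives, 1019 kept direction and side of the threshold, 14 lost a call, 26 gained one and 13 turned sign. Background is not marked, so dim genes such as Notch2 and Jag2 give little.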
